A study of Mus musculus with 2 samples.

Results

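The 46 genes described here encode the machinery of autophagy and the signalling that is known to switch it on and off: mTOR, the kinases that restrain or activate it, the Foxo transcription factors and the regulators of the lysosome. They were chosen by name and matched by symbol to the Ensembl gene identifiers of the tables, and all 46 were found among the 43346 genes listed, of which 21461 are nuclear protein coding genes. Total RNA was sequenced from 2 libraries of hematopoietic stem cells, the bone marrow cells that renew themselves and supply all blood lineages. Each library was made from 100 cells of adult male C57BL/6J mice aged 5 to 6 weeks, which the labels treat as 1 group, with no stated treatment, and number as replicates 1 and 2. Both carry the same donor identifier, and nothing used here says whether the cells came from separate animals, so their spread may reflect technique as well as biology. The sort that defined the stem cells is not described in the labels.

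Autophagy is the process by which a cell wraps parts of its cytoplasm in a membrane and delivers them to the lysosome for breakdown. The kinase complex mTORC1 is known to block its start when nutrients and growth factors are plentiful, while AMPK and the Tsc proteins restrain mTORC1. In blood stem cells, loss of Atg7, Atg5, Foxo3 or the brakes Tsc1 and Stk11 (Lkb1) in mice is known to impair long-term maintenance, and Foxo3 is known there for sustaining an autophagy gene program.

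With 1 group of 2 libraries there is no second condition and no test between groups. An exact sign-flip test on 2 libraries cannot go below p = 0.5 (two-sided), so none was used. Levels are in TPM, the deposited abundance per transcript length scaled to a fixed total per library. They are given as the value in replicate 1 and the value in replicate 2, or as mean ± SD (n = 2). A difference between the libraries is log2(TPM + 1) in replicate 1 minus replicate 2, a scale that understates the differences of low genes, and it was called past 1 log2 unit, a 2-fold difference.

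The expected counts of all features summed to 48313341 in replicate 1 and 28947093 in replicate 2, of which the 46 genes took 96041 and 49539. Of 11 stem cell markers, 10 were detected in both libraries and Slamf1 was not. The stem cell set summed to 665 TPM in replicate 1, against 493 TPM in replicate 2. This was below the erythroid sum in both libraries, and below the early myeloid sum in replicate 2 only. Levels within the set varied, with Hlf at 162 and 98.0 TPM, Flt3 at 58.6 and 42.9 TPM, and Procr at 3.29 and 6.48 TPM (replicate 1 first). Whether the set marks stem cells apart from other progenitors was not tested. The libraries differed in markers of other cells: 8 mature neutrophil genes summed to 0.5 TPM in replicate 1 and 315 TPM in replicate 2, with S100a8, Ltf, Mmp8 and Retnlg at 0 in replicate 1 and Mmp8 and Retnlg at 0 in replicate 2. The 5 early myeloid genes summed to 504 TPM in replicate 1 and 1522 TPM in replicate 2, all of them detected in both. Erythroid markers, with 8 of 8 detected in both, summed to 2352 TPM in replicate 1 and 2110 TPM in replicate 2. B and plasma cell markers, with 4 of 8 detected in both, summed to 11828 TPM in replicate 1 and 7993 TPM in replicate 2, nearly all of it from the antibody light chain gene Igkc. T and NK cell markers (3 of 6 detected in both) summed to 55.2 TPM in replicate 1 and 64.9 TPM in replicate 2, macrophage markers (2 of 6) to 8.84 and 11.0 TPM, and megakaryocyte markers (3 of 5) to 20.4 and 44.0 TPM. Their part in the values below was not tested, and in RNA from pooled cells fewer cells of a type and less RNA per cell cannot be told apart.

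Nearly the whole pathway was present. Taking a gene as detected when it reached 1 TPM and 10 expected counts in a library, 44 of the 46 genes (95.7%) passed in both libraries, against 45.5% of nuclear protein coding genes. The exceptions were Map1lc3a, an LC3 gene, and Prkaa2, one of the genes for the catalytic subunit of AMPK. For the 44 detected genes the median came to 22.6 TPM in replicate 1 and 17.4 TPM in replicate 2, with 14.0 and 12.5 TPM for all coding genes detected in both. Only 5 of the 46 exceeded 50 TPM in both libraries, namely Gabarap, Pik3r1, Bnip3l, Akt1 and Stk11. Another 6 stayed under 5 TPM in both, namely Atg14, Map1lc3a, Bnip3, Prkaa2, Ddit4 and Foxo1. Expected counts were at least 100 in both libraries for 42 of the 46.

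**Figure D1:**
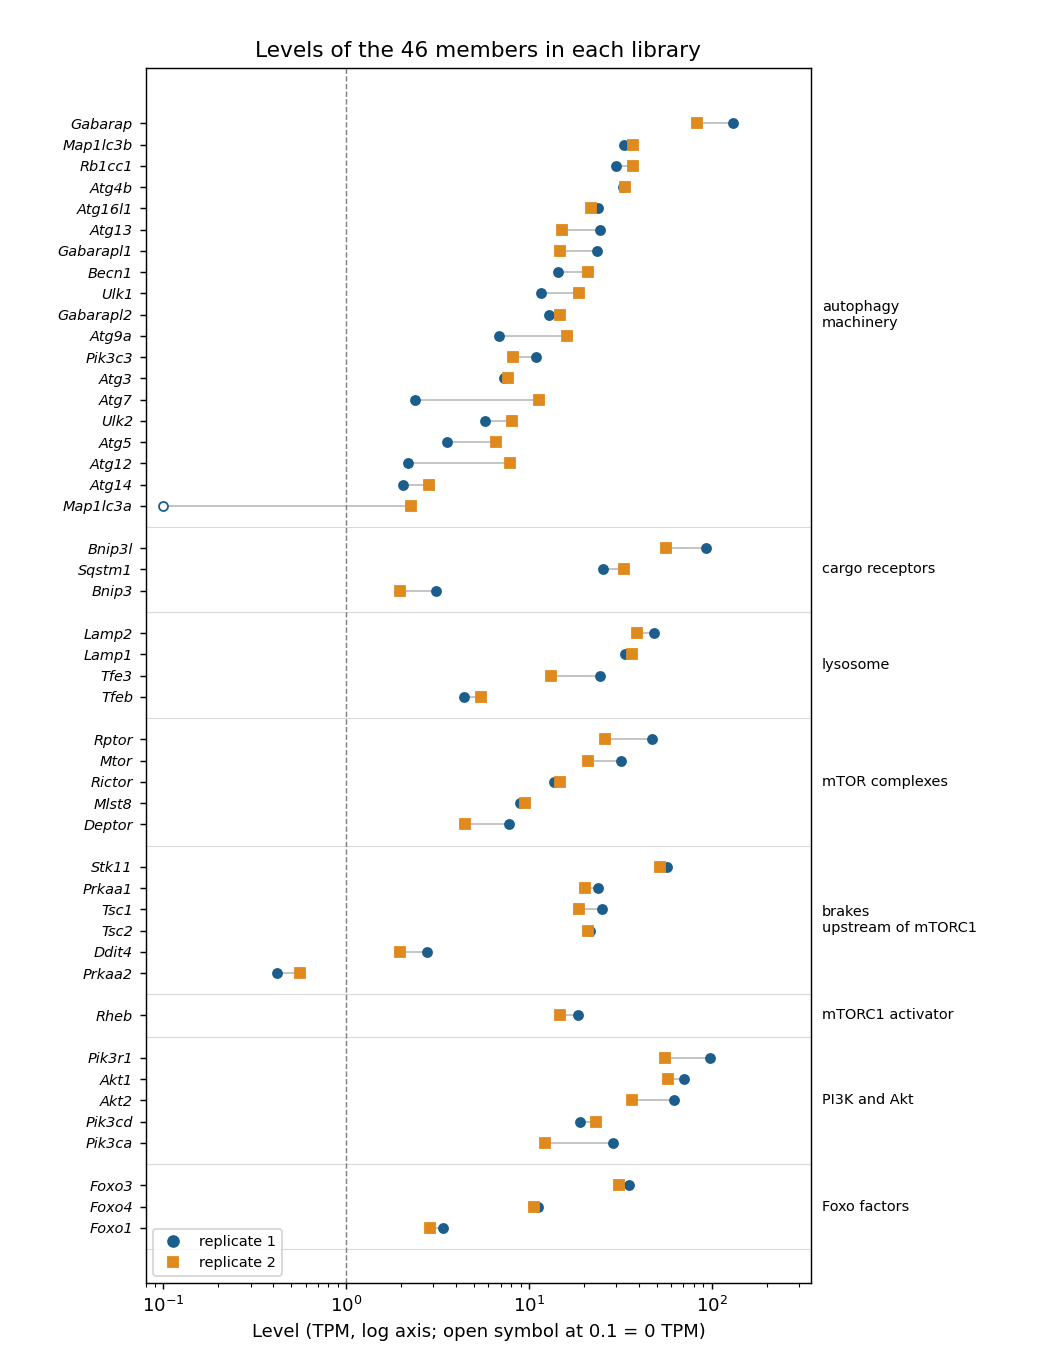
Level of each of the 46 genes in TPM (log axis) in replicate 1 (circles) and replicate 2 (squares), grouped by role, with the dashed line at 1 TPM. Gabarap is at the top with 131 and 83.2 TPM, Prkaa2 lies left of the line in both libraries, and the open symbol marks Map1lc3a, listed at 0 in replicate 1.

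The complex that starts autophagy was complete at the level of RNA. Ulk1, its kinase, stood at 11.7 TPM in replicate 1, against 18.7 TPM in replicate 2. Its paralog Ulk2 stood at 5.75 and 8.04 TPM. The log2 ratio of Ulk1 over Ulk2 was 1.01 in replicate 1 and 1.21 in replicate 2 (1.11 ± 0.14), so Ulk1 was the more abundant in both libraries. Rb1cc1, which encodes the scaffold FIP200, was measured at 29.8 TPM in replicate 1, against 36.9 TPM in replicate 2. Atg13, the partner that links the kinase to the scaffold, had 24.5 TPM in replicate 1 and 15.1 TPM in replicate 2. Atg13 was below Rb1cc1 in both libraries (log2 ratio -0.78 ± 0.71), but on protein coding transcripts alone the mean ratio was 0.11 ± 0.89, with opposite signs in the libraries.

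The class III PI3K complex, which makes the lipid that marks the new membrane, was present at lower levels. Becn1 (Beclin 1) had 14.4 TPM in replicate 1, against 21.1 TPM in replicate 2, and the lipid kinase gene Pik3c3 (Vps34) had 11.0 and 8.18 TPM. Atg14, the subunit that directs the complex to autophagy, was at 2.04 TPM in replicate 1, against 2.84 TPM in replicate 2, the lowest of the 3. Its log2 ratio over Becn1 was -2.76 in replicate 1 and -2.85 in replicate 2 (-2.80 ± 0.06), and it was -1.76 ± 0.77 on coding transcripts. The Becn1 level is uncertain, since 36.8% of its stretches of 50 bases also occur in Cntd1, a gene that overlaps it over 3104 exonic bases on the opposite strand, and how the counting treated strand is not given. Cntd1 itself was listed at 3.36 TPM in replicate 1, against 0.35 TPM in replicate 2.

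The enzymes that attach LC3-type proteins to the membrane included Atg7 and Atg12, which were over 2-fold higher in replicate 2. Atg7 (chr6:114643097-114860614, GRCm38), the E1-like enzyme that activates both conjugation systems, had 2.39 TPM in replicate 1 and 11.4 TPM in replicate 2 (difference -1.87), resting on 289 and 504 counts. Atg12, the ubiquitin-like protein joined to Atg5, had 2.18 TPM in replicate 1, against 7.84 TPM in replicate 2, from counts of 166 and 336 (difference -1.48). Atg5 showed the same direction within the 2-fold limit, with 3.55 TPM in replicate 1 and 6.60 TPM in replicate 2 (difference -0.74). Atg3, the E2-like enzyme, was nearly equal, at 7.31 TPM in replicate 1, against 7.65 TPM in replicate 2. Atg4b, the protease that trims LC3 and releases it again, was likewise even over all transcripts, at 32.5 TPM in replicate 1, against 33.6 TPM in replicate 2, and was the most abundant gene of this step on that measure. Over coding transcripts alone Atg4b had 10.3 TPM in replicate 1 and 5.35 TPM in replicate 2 (difference 0.83), and in replicate 2 it lay below Atg3, Atg5, Atg7 and Atg12. The order of Atg3 and Atg7 therefore turned round between the libraries (log2 ratio 1.57 in replicate 1 and -0.57 in replicate 2), as did that of Atg5 and Atg12 (0.68 in replicate 1 and -0.24 in replicate 2).

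Atg16l1, the scaffold that carries the Atg12-Atg5 conjugate to the membrane, had 23.8 TPM in replicate 1 and 21.9 TPM in replicate 2. Most of that signal was assigned to transcripts annotated as retaining an intron, 90.4% in replicate 1 and 78.6% in replicate 2. Its protein coding transcripts held 2.29 TPM in replicate 1 and 4.68 TPM in replicate 2. The log2 ratio over Atg5 was accordingly 2.21 ± 0.70 for all transcripts and -0.55 ± 0.09 for coding ones, and the order of the 2 genes reverses with that choice. Atg9a (chr1:75180860-75192196, GRCm38), the membrane protein whose vesicles seed the autophagosome, had 6.85 TPM in replicate 1 and 16.1 TPM in replicate 2 (difference -1.12). It is an uncertain case: Gm29253, listed at 0 in both libraries, lies on its strand over 1832 of its exonic bases, and 58.0% of its signal in replicate 1, against 9.01% in replicate 2, was assigned to a transcript class subject to nonsense-mediated decay.

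The Atg8 family, the small ubiquitin-like proteins that decorate the autophagosome, was led by Gabarap (chr11:69991143-69994951, GRCm38). Gabarap had 131 TPM in replicate 1 and 83.2 TPM in replicate 2, the highest mean of all 46 genes (107 ± 34.1 TPM). Map1lc3b (LC3B), the usual marker protein of autophagosomes, followed with 33.2 TPM in replicate 1 and 36.9 TPM in replicate 2. Gabarapl1 had 23.6 TPM in replicate 1, against 14.7 TPM in replicate 2, and its log2 ratio over Gabarap hardly moved between them (-2.48 in replicate 1 and -2.50 in replicate 2). Gabarapl2 had 12.8 TPM in replicate 1 and 14.8 TPM in replicate 2, of which 100% and 79.7% was on intron-retaining transcripts, led by Gabarapl2-203. Its coding transcript was listed at 0 in replicate 1 and at 3.0 TPM in replicate 2.

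Map1lc3a (LC3A), the remaining family gene, was listed at 0 counts in replicate 1 and 33 counts, or 2.27 TPM, in replicate 2. A limit of 3 counts per library allows 0.118 TPM in replicate 1, and the level listed in replicate 2 is 19.2-fold that limit. This is not a lower bound on the difference, since the counting error of the 33 counts is not included. The deposited interval for replicate 1, whose level is not stated, also reaches higher, to 0.253 TPM. Absence in replicate 1 was common at this level: of the 1640 nuclear coding genes that replicate 2 lists between 1 and 3 TPM, replicate 1 had no count for 26.1%, against 2.58% of 1242 in the other direction. Most of the Map1lc3a signal in replicate 2 (63.4%) was on a processed transcript, with 0.83 TPM on the coding one.

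Cargo receptors, which tether what is to be degraded to the Atg8 proteins, spanned a wide range. Sqstm1 (p62), the receptor for ubiquitin-tagged cargo, had 25.3 TPM in replicate 1 and 33.3 TPM in replicate 2. Bnip3l (Nix), a receptor that marks mitochondria for removal and is known for clearing them from maturing red cells, had 93.0 TPM in replicate 1 and 55.9 TPM in replicate 2. Its hypoxia-induced paralog Bnip3 had 3.09 TPM in replicate 1 and 1.97 TPM in replicate 2. Bnip3l exceeded Bnip3 by 4.81 ± 0.08 log2 units over all transcripts and by 2.91 ± 0.02 on coding ones, the same order in both libraries either way. The gap between these figures lies with short processed transcripts, which held 74.6% of the Bnip3l signal in replicate 1 and 71.9% in replicate 2, while the coding Bnip3l-201 had 23.6 and 15.5 TPM. A Bnip3l pseudogene shares 20.8% of its 50-base stretches and was listed at 7.19 TPM in replicate 1, against 0.79 TPM in replicate 2, and 47.2% of the stretches of Bnip3 recur in other genes. Erythroid markers were present in both libraries, at the sums given above.

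The lysosomal membrane proteins Lamp1 and Lamp2 differed little between the libraries. Lamp1 had 33.5 TPM in replicate 1, against 36.7 TPM in replicate 2, and Lamp2, whose splice forms include the receptor of chaperone-mediated autophagy, had 48.4 and 38.9 TPM. Their order did not hold beyond the spread (log2 ratio of Lamp2 over Lamp1 0.30 ± 0.32). Of the transcription factors that induce lysosome and autophagy genes and that mTORC1 holds in the cytoplasm, Tfe3 was the more abundant, with 24.5 TPM in replicate 1 and 13.2 TPM in replicate 2. Tfeb had 4.41 TPM in replicate 1 and 5.48 TPM in replicate 2, which gave a log2 ratio of Tfe3 over Tfeb of 2.45 and 1.25 (1.85 ± 0.84). The Tfeb value in replicate 2 rests on 118 counts, of which coding transcripts took 65.0% of the TPM, against 100% in replicate 1.

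TFEB and TFE3 are known to bind the CLEAR element, whose core is TCACGTGA, an extended form of the E-box CACGTG. The promoter windows of RefSeq (250 bases before to 50 bases after a start, GRCm38.p6) were searched for both on either strand, and every TCACGTGA match also counts as an E-box. Of the 46 genes 37 had a window, 47 windows in all. The core was found in 1 of these 47 windows (2.13%), that of Atg3, against 0.974% of all 32851 windows. In the list of 29 further lysosome genes, 5 of 27 windows (18.5%) held it. The E-box was found in 7 of the 47 windows (14.9%), those of Atg14, Atg3, Atg5, Atg7, Bnip3, Lamp1 and Rheb, against 7.15% of all windows. A match is a description of the letters and not a bound site. The windows below show the Atg3 match beside those of Ctsa, Ctsd and Mcoln1, lysosomal genes with the core, and 1 of the 4 E-boxes of Lamp1, each written 5′ to 3′ on the gene's strand with the motif in capitals.
Atg3, chr16:45158746-45158775 (+): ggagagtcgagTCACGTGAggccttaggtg
Ctsa, chr2:164833749-164833778 (+): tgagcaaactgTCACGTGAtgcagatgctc
Ctsd, chr7:142387908-142387937 (-): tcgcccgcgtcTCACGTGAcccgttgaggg
Mcoln1, chr8:3500462-3500491 (+): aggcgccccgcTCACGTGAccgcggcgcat
Lamp1, chr8:13159088-13159117 (+): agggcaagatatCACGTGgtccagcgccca

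All 5 subunit genes of the mTOR complexes were detected. Mtor, the kinase shared by mTORC1 and mTORC2, had 31.8 TPM in replicate 1 and 21.1 TPM in replicate 2. Rictor, which defines mTORC2, had 13.7 TPM in replicate 1, against 14.7 TPM in replicate 2 from its single listed transcript. Mlst8, the small subunit of both complexes, had 8.89 TPM in replicate 1 and 9.57 TPM in replicate 2. All of the Mlst8 signal was on Mlst8-202 in replicate 1 and on Mlst8-201 in replicate 2, coding transcripts that differ little in length (3366 and 3361 bases). Deptor, an inhibitory subunit, had 7.79 TPM in replicate 1, against 4.49 TPM in replicate 2, and lay below Mtor by a similar margin in both (log2 ratio -2.02 in replicate 1 and -2.21 in replicate 2).

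Rptor, which encodes Raptor, the subunit that defines mTORC1, had 47.2 TPM in replicate 1 and 26.0 TPM in replicate 2. Its protein coding transcripts held 28.7% of that in replicate 1 and 16.5% in replicate 2, or 13.5 and 4.28 TPM. In replicate 1 the coding signal was on Rptor-202, a transcript of 515 bases, while the full-length Rptor-201 of 6594 bases was listed at 0 there and at 3.39 TPM in replicate 2. The log2 ratio of Rptor over Rictor was 1.29 ± 0.68 over all transcripts and -0.89 ± 1.23 over coding ones, so which of the defining subunits was the more abundant depended on the transcripts counted.

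The brakes on mTORC1 ranged from abundant to under the 1 TPM set for detection. Stk11 (LKB1), the kinase that activates AMPK, had 57.1 TPM in replicate 1 and 52.3 TPM in replicate 2. Its protein coding transcripts held 42.9% of that in replicate 1 and 39.3% in replicate 2, or 24.5 and 20.6 TPM. Prkaa1, a catalytic subunit of AMPK, had 23.8 TPM in replicate 1 and 20.3 TPM in replicate 2. Its paralog Prkaa2, which is the main form in skeletal and heart muscle, had 0.42 and 0.56 TPM from 105 and 79 counts. The AMPK catalytic RNA was thus almost all from Prkaa1, whose log2 ratio over Prkaa2 was 5.52 in replicate 1 and 4.95 in replicate 2. Tsc1 had 25.0 TPM in replicate 1, against 18.8 TPM in replicate 2, and Tsc2, whose protein switches off the GTPase Rheb, had 21.6 and 21.1 TPM. The 2 partners were not separable over all transcripts (log2 ratio 0.02 ± 0.26), but Tsc1 was the lower on coding transcripts (-1.68 ± 0.26), which held 30.4% of its signal in replicate 1 and 30.3% in replicate 2. Ddit4 (REDD1), a stress-induced brake that acts through the Tsc proteins, was low, at 2.77 TPM in replicate 1, against 1.98 TPM in replicate 2. Rheb, the direct activator of mTORC1, had 18.6 TPM in replicate 1 and 14.8 TPM in replicate 2, below Tsc2 in both libraries (log2 ratio -0.36 ± 0.21).

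Genes of the PI3K and Akt step, which carries growth factor signals to mTORC1 and the Foxo factors, were the most abundant group by median, with 61.8 TPM in replicate 1 and 36.7 TPM in replicate 2. Pik3r1, the regulatory subunit p85, had 97.9 TPM in replicate 1 and 55.5 TPM in replicate 2. A single intron-retaining transcript of 472 bases, Pik3r1-203, held 45.3 TPM of that in replicate 1 and 13.2 TPM in replicate 2. Akt1 had 70.7 TPM in replicate 1, against 58.0 TPM in replicate 2, and Akt2 had 61.8 and 36.7 TPM. Akt1 exceeded Akt2 in both libraries over all transcripts (log2 ratio 0.19 in replicate 1 and 0.66 in replicate 2), though on coding transcripts replicate 1 had the opposite order (-0.24). The catalytic subunit Pik3cd (p110 delta), the form typical of white blood cells, had 19.0 TPM in replicate 1 and 23.2 TPM in replicate 2.

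Pik3ca (p110 alpha; chr3:32397671-32468486, GRCm38), the widely expressed catalytic subunit, had 28.8 TPM in replicate 1 and 12.2 TPM in replicate 2, a difference of 1.17. It was the sole member past 2-fold in that direction. The difference lay in Pik3ca-204, an intron-retaining transcript of 440 bases with 13.1 TPM in replicate 1, against 0.65 TPM in replicate 2, from counts of 134 and 3.63. Over protein coding transcripts Pik3ca had 15.7 TPM in replicate 1 and 11.6 TPM in replicate 2, a difference of 0.41. From expected counts, as CPM with TMM factors, the difference was 0.37.

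Among the Foxo factors, which Akt excludes from the nucleus by phosphorylation, Foxo3 dominated. Foxo3 (chr10:42181841-42276755, GRCm38) had 35.4 TPM in replicate 1 and 31.1 TPM in replicate 2. Foxo1 had 3.40 TPM in replicate 1, against 2.89 TPM in replicate 2, and their log2 ratio was 3.34 and 3.38 (3.36 ± 0.03), on coding transcripts as well. This was among the tightest of the 26 ratios compared. Foxo4 came between, with 11.2 TPM in replicate 1 and 10.7 TPM in replicate 2. Behind its even total the assignment to transcripts differed, as the coding ones held 73.2% in replicate 1 and 30.9% in replicate 2, or 8.24 and 3.32 TPM, the rest being the processed transcript Foxo4-203. Foxo3 was therefore above Foxo4 by 1.58 ± 0.09 log2 units over all transcripts and by 2.64 ± 0.78 over coding ones. Foxo6, the remaining gene of the family, was listed at 0 counts in both libraries.

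The Foxo site GTAAACAA, searched on both strands, was found in 2 of the 47 windows of the 46 genes (4.26%), those of Akt1 and Stk11, against 1.23% of all windows. In a list of 17 genes known as Foxo targets, Txnip and Trim63 held it, in 2 of 17 windows. The Akt1, Stk11 and Txnip matches are shown for their place upstream and downstream of the Foxo factors, in the same notation, and the Akt1 window reads the site on the other strand.
Akt1, chr12:112675028-112675057 (-): aatctaccctcTTGTTTACactcctggtga
Stk11, chr10:80115800-80115829 (+): ggcgcagggcgGTAAACAAgatggcggcgg
Txnip, chr3:96557825-96557854 (+): ttggaggcctgGTAAACAAgggccaagtag

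By role, the medians of the autophagy machinery (11.7 TPM in replicate 1, against 14.8 TPM in replicate 2) and of the mTOR complexes (13.7 and 14.7 TPM) were close. Their difference in median log2(TPM + 1) was -0.21 in replicate 1 and 0 in replicate 2 (-0.10 ± 0.15), within the spread. The brakes upstream of mTORC1, at 22.7 TPM in replicate 1, against 19.6 TPM in replicate 2, were above the mTOR complexes by 0.54 ± 0.21. The Foxo factors, at 11.2 TPM in replicate 1, against 10.7 TPM in replicate 2, were below them by a small margin (-0.34 ± 0.11). These orders depended on the transcripts counted. On coding transcripts alone the autophagy machinery lay below the mTOR complexes in both libraries (-0.87 ± 0.83). The brakes no longer differed from the mTOR complexes beyond the spread (0.06 ± 0.17). The Foxo median, again that of Foxo4 alone, was further below (-0.97 ± 0.45). PI3K and Akt genes were above the mTOR complexes both ways, by 1.68 ± 0.59 over all transcripts and by 1.49 ± 0.27 over coding ones. Genes of a group are not replicates, and no test was made.

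**Figure D2:**
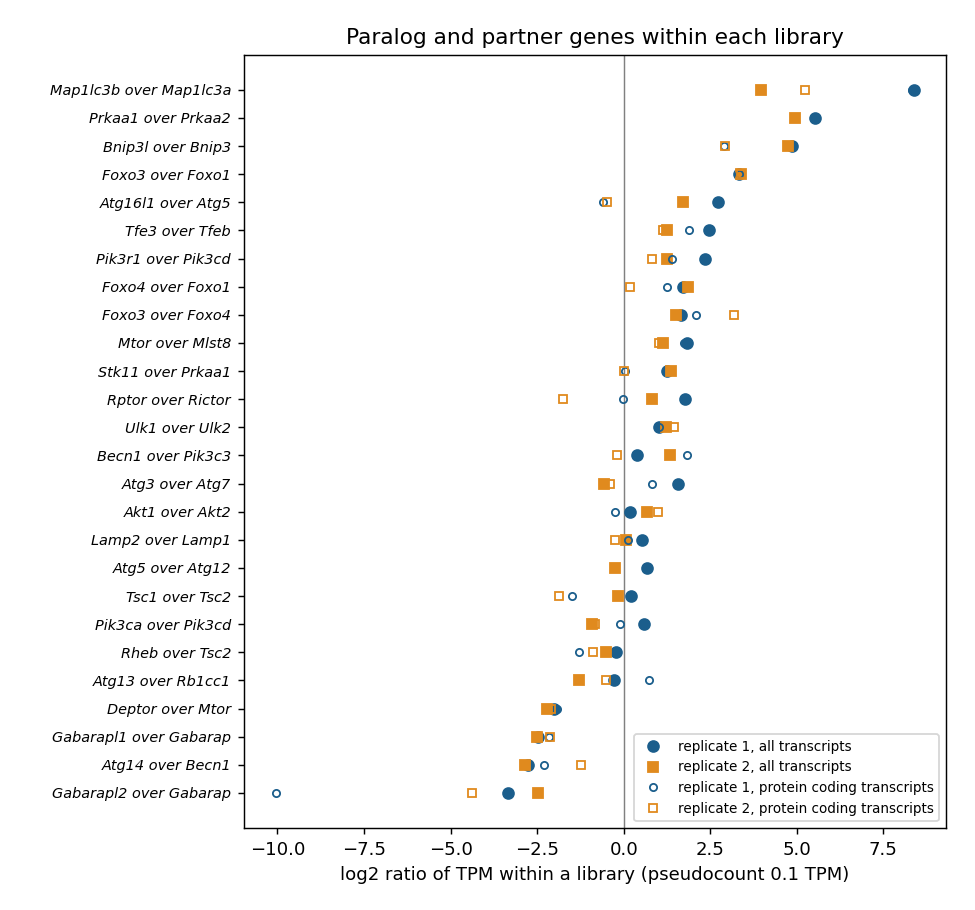
Log2 ratio of TPM between paralogs or partner genes within each library, for 26 pairs, with circles for replicate 1 and squares for replicate 2 (filled: all transcripts; open: protein coding transcripts only; pseudocount 0.1 TPM). Foxo3 over Foxo1 and Bnip3l over Bnip3 nearly coincide between libraries, while the open symbols of Atg16l1 over Atg5 and Rptor over Rictor fall to the other side of the filled ones or onto the zero line.

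Of the 26 pairs compared, 21 had the same order in both libraries with a mean ratio larger than its SD, and 15 of these 21 kept that order beyond the SD on coding transcripts. The other 6 were Atg13 over Rb1cc1, Becn1 over Pik3c3, Atg16l1 over Atg5, Rptor over Rictor, Akt1 over Akt2 and Foxo4 over Foxo1, of which Atg16l1 over Atg5 had the opposite order beyond the SD (-0.55 ± 0.09). Stk11 over Prkaa1 kept its sign, but shrank to 0.03 ± 0.02 on coding transcripts, against 1.31 ± 0.07 over all. No other gene pairs were compared in this way, so the counts of pairs describe only the 26 listed.

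Few of the 46 genes differed past 2-fold between the libraries. Of the 45 detected in either library, 1 (2.22%) was over 2-fold higher in replicate 1, against 11.2% of nuclear coding genes, and 4 (8.89%) were over 2-fold higher in replicate 2, against 12.1%. Those 4 were Atg7, Atg12, Atg9a and Map1lc3a, all of them autophagy machinery. The median difference was 0.09 for the 46 genes and 0.09 for all coding genes detected in either library, and the median absolute difference was 0.36 and 0.49. Within the autophagy machinery 14 of 19 genes were lower in replicate 1, with a median difference of -0.30, and between 12 and 15 were lower under every other scaling or transcript choice tried. The 26 further autophagy genes described below did not share this direction, with a median difference of 0.12. The share of all coding genes lower in replicate 1 was not computed, and genes of a group are not replicates. In the PI3K and Akt group 4 of 5 genes were higher in replicate 1, with a median difference of 0.74 that came to 0.22 as CPM with TMM factors. Rescaling TPM to the nuclear coding genes shifted the median of all coding genes by -0.17, and Atg5 then passed 2-fold as well. The neutrophil and early myeloid markers were also lower in replicate 1, and their part in the autophagy differences was not tested.

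**Figure D3:**
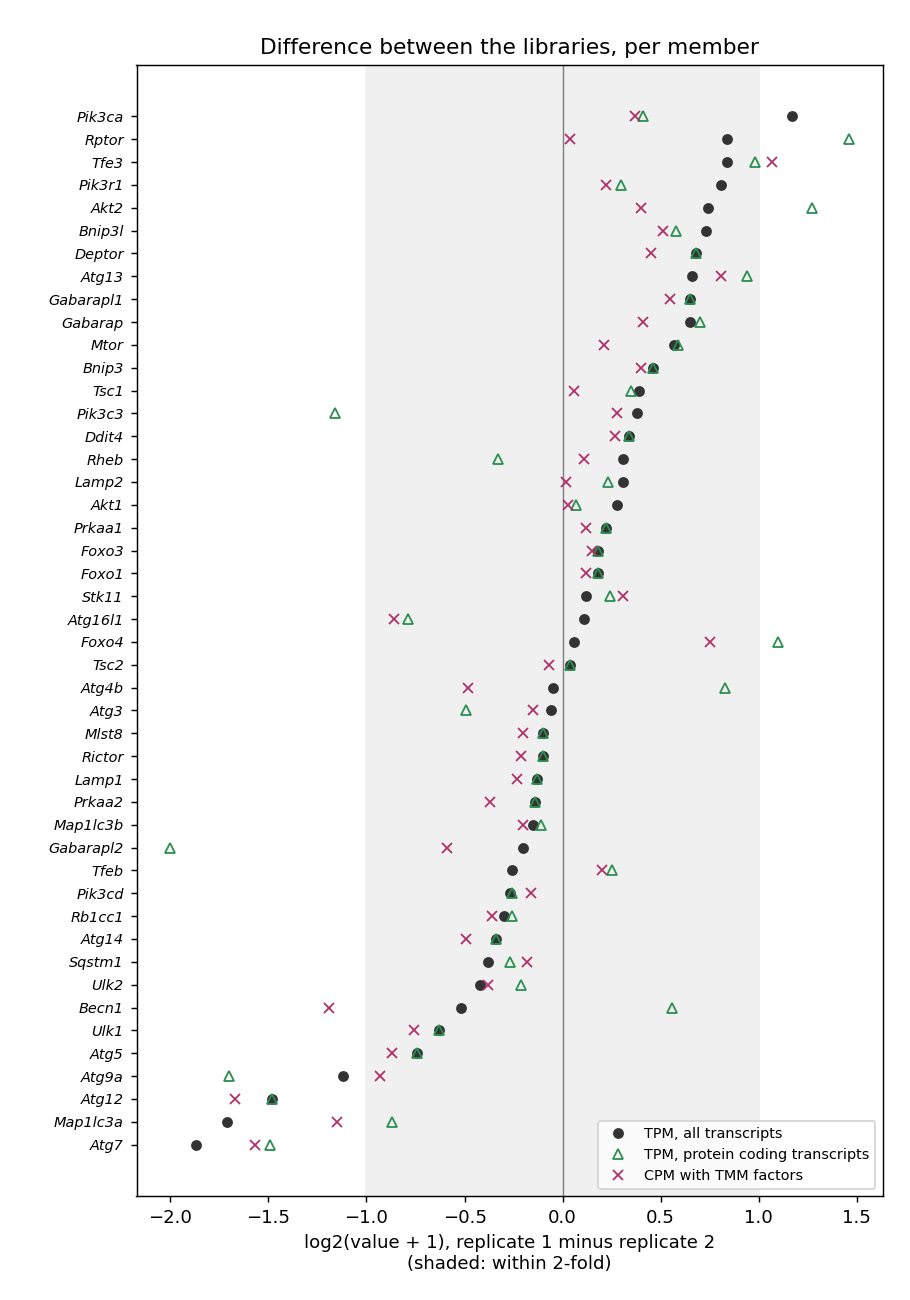
Difference between the libraries for each of the 46 genes, as log2(value + 1) in replicate 1 minus replicate 2, from TPM of all transcripts (dots), TPM of protein coding transcripts (triangles) and CPM with TMM factors (crosses); the shaded band is within 2-fold. Atg7 and Atg12 lie left of the band on all 3 measures, and Pik3ca lies right of it by all transcripts only.

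Atg7 was past 2-fold under every alternative tried, and Atg12 under all but a pseudocount of 5 TPM (-0.84). The other calls depended on the measure. From expected counts, Tfe3 (1.07) was over 2-fold higher in replicate 1, and Becn1 (-1.19), Atg7 (-1.57), Atg12 (-1.67) and Map1lc3a (-1.15) were over 2-fold higher in replicate 2. Becn1 had the opposite direction over coding transcripts, with 10.4 TPM in replicate 1 and 6.74 TPM in replicate 2 (difference 0.56). Over coding transcripts, Rptor (1.46), Akt2 (1.27) and Foxo4 (1.10) were over 2-fold higher in replicate 1. On the same scale Gabarapl2 (-2.00), Atg9a (-1.70), Atg7 (-1.49), Atg12 (-1.48) and Pik3c3 (-1.16) were over 2-fold higher in replicate 2. The shares of all coding genes past 2-fold from expected counts or over coding transcripts were not computed, so these calls have no background beside them.

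The transcript tables give the classes behind these values. For 12 of the 46 genes a single transcript is listed, among them Ulk1, Atg5, Atg12, Lamp1, Rictor, Tsc2, Prkaa1 and Foxo1, and their levels involve no choice of transcript. Of the 33 detected genes with several transcripts, 15 (45.5%) had the same leading transcript in both libraries, against 51.8% of 7364 coding genes. Protein coding transcripts held a median of 73.2% of the signal of these 33 genes in replicate 1 and 76.9% in replicate 2, against 81.9% and 73.9% for coding genes at large. Retained-intron transcripts held a median of 6.47% in replicate 1 and 14.4% in replicate 2, against 0% and 6.36%. In 8 of the 33 genes (24.2%), coding transcripts held under 50% in both libraries, against 16.6% of coding genes. These were Gabarapl2, Atg16l1, Rptor, Atg4b, Bnip3l, Tsc1, Stk11 and Rb1cc1. Total RNA includes unspliced RNA, and the tables assign reads to annotated transcripts only. How much of the retained-intron signal is processed RNA cannot be told from these tables.

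**Figure D4:**
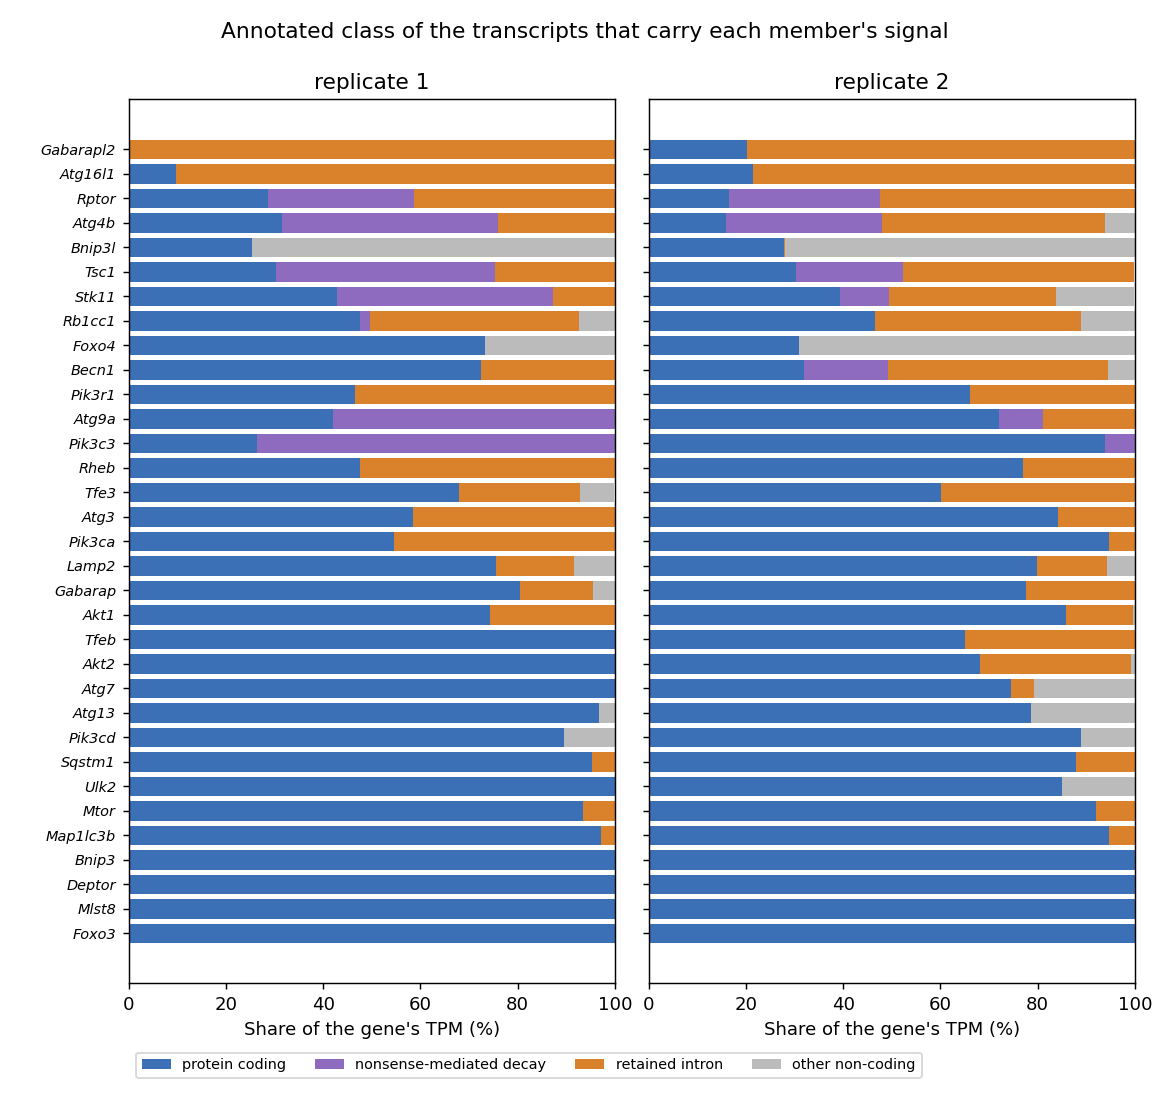
Share of each gene's TPM (percent) on transcripts annotated as protein coding, nonsense-mediated decay, retained intron or other non-coding, in replicate 1 (left) and replicate 2 (right), for the 33 detected genes with more than 1 transcript. Gabarapl2 and Atg16l1 carry most of their signal on retained-intron transcripts in both libraries, while Foxo3, Mlst8, Deptor and Bnip3 are wholly protein coding.

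Most of the wider pathway was detected as well. Of 138 further genes in 7 lists, 125 (90.6%) were detected in both libraries, again against 45.5% of nuclear coding genes. Among the 132 detected in either library, 12 (9.09%) were over 2-fold higher in replicate 1, against 11.2% of nuclear coding genes, and 9 (6.82%) were over 2-fold higher in replicate 2, against 12.1%.

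Of 26 further autophagy genes, 25 were detected in both libraries. The GTPase Rab7, which matures autophagosomes and endosomes, had 80.3 TPM in replicate 1 and 80.7 TPM in replicate 2. Vmp1, a membrane protein needed to form autophagosomes, was as even, at 78.8 TPM in replicate 1, against 81.1 TPM in replicate 2, and the cargo receptor Tax1bp1 had 60.2 and 51.0 TPM. Atg10, the E2-like enzyme for Atg12, was at 0 counts in replicate 1 and at 2.83 TPM in replicate 2. In the lysosome list, 28 of 29 genes were detected, led by Laptm5, a lysosomal membrane protein of blood cells (259 TPM in replicate 1 and 217 TPM in replicate 2). The protease gene Ctsa (87.2 TPM in replicate 1, against 56.6 TPM in replicate 2) and Psap, the precursor of the saposins (78.7 and 60.0 TPM), followed. The exception was Tfec, a relative of Tfeb and Tfe3, at 0 in replicate 1 and 3.61 TPM in replicate 2. Of the 29 lysosome genes 3 were over 2-fold higher in replicate 1, namely Ctss, Grn and Atp6v1h (differences 1.51, 1.16 and 1.45). This count and the next are near the shares of nuclear coding genes past 2-fold, 11.2% and 12.1%. They therefore show nothing particular to lysosome genes. Another 3 were over 2-fold higher in replicate 2, namely Tfec, the protease gene Ctsz (-1.31) and Mcoln1 (-1.43), a lysosomal membrane channel with 8.60 TPM in replicate 1 and 24.9 TPM in replicate 2.

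In the list of nutrient sensing and mTOR control genes, which is not limited to sensors, 31 of 34 were detected in both libraries. Among the most abundant was Nprl3 (37.6 TPM in replicate 1 and 27.5 TPM in replicate 2), a subunit of GATOR1, which restrains mTORC1 when amino acids are low. Sec13, a GATOR2 subunit that also serves vesicle coats and nuclear pores, had 48.0 TPM in replicate 1 and 17.1 TPM in replicate 2. Rragd was listed at 0 in both libraries, Prr5l at 0 in replicate 1, against 0.14 TPM in replicate 2, and Lamtor4 at 0 in replicate 1 and 6.97 TPM in replicate 2. Among 10 outputs of mTOR, 8 were detected. The ribosomal protein gene Rps6, whose protein is phosphorylated downstream of mTORC1, had 988 TPM in replicate 1 and 728 TPM in replicate 2. Eif4ebp2, a translation repressor that mTORC1 inactivates, had 169.7 TPM in replicate 1, against 119.9 TPM in replicate 2, and Larp1 had 59.5 and 79.8 TPM. Sgk1 and Eif4ebp3 were at 0 in replicate 1 and at 2.42 and 2.37 TPM in replicate 2.

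Of 8 AMPK partners, 7 were detected, with Prkab1 (48.1 TPM in replicate 1 and 52.3 TPM in replicate 2) as the leading beta subunit. Cab39, a partner of LKB1, had 30.1 TPM in replicate 1, against 32.1 TPM in replicate 2, and Prkag2 had 27.7 and 15.4 TPM. Prkag3, known as a skeletal muscle subunit, was listed at 0 in both. Of 15 PI3K pathway partners, 12 were detected. Inpp5d (SHIP1), a lipid phosphatase of blood cells, had 71.8 TPM in replicate 1 and 75.2 TPM in replicate 2. Pdpk1, the kinase that activates Akt, had 27.8 TPM in replicate 1, against 24.7 TPM in replicate 2. Pik3r3 and Pik3r6 were at 0 in replicate 1, and at 0.1 and 1.12 TPM in replicate 2.

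Of the 17 genes known as Foxo targets, 15 were detected in both libraries. Txnip, an inhibitor of thioredoxin and of glucose uptake, had 101 TPM in replicate 1 and 87.0 TPM in replicate 2. Catalase (Cat) had 50.5 TPM in replicate 1, against 41.9 TPM in replicate 2. Fbxo32 (1.85 TPM in replicate 1, against 0.79 TPM in replicate 2) and Trim63 (listed at 0 in both), ubiquitin ligases known as Foxo targets of wasting muscle, were the exceptions.

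**Figure D5:**
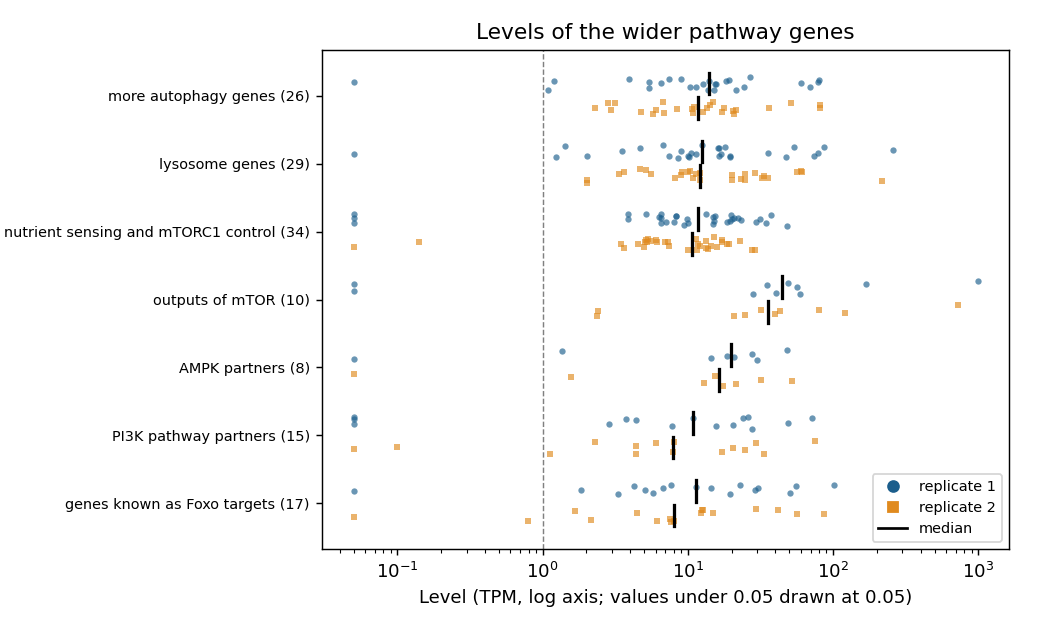
Level in TPM (log axis) of the genes of 7 wider pathway lists in replicate 1 (circles, upper row of each list) and replicate 2 (squares, lower row), with bars at the medians and the dashed line at 1 TPM. The outputs of mTOR have the highest medians, 44.6 TPM in replicate 1 and 35.8 TPM in replicate 2.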

How the data were processed

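The samples were 2 total RNA libraries of one group. Expected counts, estimated reads per gene and transcript that need not be whole, were deposited by the authors, as were TPM and FPKM values and posterior mean TPM, per the file headers, whose column names are those RSEM writes. Build mm10 and annotation M4 are named in the text deposited with each sample. The sources used here do not give the aligner, program versions or strand handling. Rows naming no gene (26345 of 69691) held 0.012% of counts in replicate 1 and 0.00719% in replicate 2 and were left out. The sequence Gm42418 took 29.8% of TPM in replicate 1 and 41.0% in replicate 2, which lowers all other TPM values.

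Genes were matched by identifier to GENCODE M21 (GRCm38), which gave positions and transcript classes. Shared stretches of 50 bases were counted between its transcripts. Size factors for CPM came from edgeR 4.0.16 and DESeq2 1.42.0 in R 4.3.3. Other steps used Python 3.11.15, numpy 2.4.6, pandas 2.3.3 and matplotlib 3.10.9. The code of the 2-fold step was run on simulated counts with counting error only. That simulation had no loss of genes and no assignment to transcripts, so it does not measure the spread between real libraries. Of the wider lists, the 3 genes of highest mean TPM and those not detected in both libraries are named; other genes outside the members were named after their values were seen. Members, lists, motifs and the choice of coding transcripts or of transcripts over 1000 bases were made with earlier results of these data known. The limit of 3 counts covers counting error only. Alternatives were thresholds, pseudocounts, posterior mean TPM, FPKM, rescaled TPM, CPM, transcript classes and leaving out each library.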

Additional observations from a re-analysis of the deposited data

How the results depend on the processing

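The counts of genes detected in both libraries (44 of the 46; 35 at a minimum of 5 TPM) and of the wider genes (125; 102 at 5 TPM) stayed within 1.5 times under every threshold tried, and leaving out a library gave 44 to 45. Genes over 2-fold higher in replicate 1 numbered 0 with a pseudocount of 5 TPM, against 1, and 3 either on protein coding transcripts or without transcripts under 1000 bases, where Pik3ca was at 0.41. The number over 2-fold higher in replicate 2 was 1 (Atg7) with a pseudocount of 5 TPM, against 4, and 3 to 5 otherwise. The shares of all coding genes past 2-fold under these alternatives were not computed. On protein coding transcripts the difference in median from the mTOR complexes was -0.87 for the autophagy machinery, 0.06 for the brakes and -0.97 for the Foxo factors. Leaving out a library gave -0.21 to 0 for the autophagy machinery, 0.38 to 0.69 for the brakes and -0.42 to -0.26 for the Foxo factors. Called ratios whose mean changed sign on protein coding transcripts were Atg13 over Rb1cc1 (0.11 ± 0.89), Atg16l1 over Atg5 (-0.55 ± 0.09) and Rptor over Rictor (-0.89 ± 1.23). Only that of Atg16l1 over Atg5 was then beyond its SD. The transcripts left out held over 50% of the signal of Rb1cc1, Atg16l1 and Rptor. The number of ordered pairs was 21 with a pseudocount of 1 TPM or posterior mean TPM and 17 on coding transcripts, counting either order. No paired analysis was possible because there is a single group. With 96041 and 49539 counts on the 46 genes, Map1lc3a, Bnip3, Ddit4 and Prkaa2 rested on under 100 counts each in replicate 2, which limits the precision of their levels.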
